A study of Arabidopsis thaliana with 6 samples.

Results

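The core histone genes of Arabidopsis thaliana were compared between rosettes grown in air with 3 ppm nitric oxide (NO) added and rosettes grown in ambient air. Genes were taken as members where RefSeq's table of genes (assembly TAIR10.1) gave a symbol or synonym of HTA, HTB or HTR followed by a number, or HIS4, and their probes were found through the transcript each probe names. The rule found 21 genes of the 25383 with a probe, namely 13 H2A genes, 5 H2B genes, 2 H3 genes and 1 H4 gene, and 19 of the 21 were bright enough to test among 18614 tested genes. The 2 H3 genes were HTR12, which encodes the centromeric form, and HTR11. The table annotates 5 genes as histone 3.1 and 3 as histone 3.3 without an HTR name, so these are described beside the members and not counted among them. They were added after the gene table was read.

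The plants of both groups were wild type and grown on soil with sand in fumigation chambers at 20 °C by day and 16 °C by night and 80% humidity. The NO group received ambient air mixed with 3 ppm NO throughout day and night until harvest at 4 weeks, and the ambient group received ambient air, whose own NO content the labels do not give. Total RNA from whole rosette leaves was labelled with Cy3 from 10 ng and put on Agilent one-colour arrays, 3 in each group, which the series describes as 3 independent biological experiments. How many plants went into each sample was not stated in the labels.

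Core histones are the proteins around which DNA is wound in nucleosomes. Replication-dependent forms (canonical H2A and H2B, H3.1 and H4) are made mostly in S phase, when new chromatin is assembled, whereas variants can be placed into chromatin at other times. H2A.Z marks many responsive genes, H2A.X is phosphorylated at DNA breaks, H2A.W lies in plant heterochromatin, H3.3 is placed on transcribed genes and CENH3 at centromeres. In a rosette, dividing cells are found mainly in the shoot apex and young leaves.

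All 3 NO arrays lay on one slide and all 3 ambient arrays on the other, each scanned once, so an effect of NO and one of the slide cannot be told apart in the values given here. Of 10 spike-in control transcripts, 7 were bright enough to compare. Their signals were taken relative to the gene signals of the same array, by the scale described below. On that scale all 7 were higher on every NO array than on every ambient array, which need not hold for the unscaled signals. The changes given below were not scaled by the spike-ins. Scaling by these 7 would move every change downward, by an amount not worked out here. Between 68.5% and 72.0% of the 61657 gene spots were well above background on the NO arrays, against 65.2% to 66.8% on the ambient arrays, and none was saturated. With 3 arrays in each group, precision is limited throughout. Because leaves are a mixture of cells, fewer cells of a type and less RNA per cell cannot be told apart. The leaf genes CAB1, RBCS1A, RCA and CA1 were well above background on all 6 arrays.

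Values are log2 signals relative to the 75th percentile of each array, so a value of 0 is the signal at that percentile. Probes differ in how they bind, so values are compared between arrays and not between genes. Changes are NO minus ambient on the log2 scale with the SE from limma, 3 arrays per group, and a gene was called where its Benjamini-Hochberg adjusted p over all tested genes was below 0.05. Intervals of a change are 95% confidence intervals from the same fit. Probe sequences were not used here, so how far near-identical histone genes share signal was not tested, and the value of each gene is uncertain to that degree.

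The members moved in both directions, by sizes near those of all tested genes. Of the 19 tested members, 5 were higher in NO, 7 were lower and 7 did not pass the test. The share called was 63.2%, beside 58.2% of all tested genes, which is near that background. Higher in NO were 26.3% of the tested members, beside 25.8% of all genes, and lower were 36.8%, beside 32.4%. The median log2 change of the members was -0.13, and that of all tested genes was -0.05. Only HTA11 changed by at least 1.5-fold, and among all tested genes 80.6% changed by less than that. The median absolute log2 change was 0.29 for the members, beside 0.26 for all tested genes. In 13 of the 19 (68.4%) the arrays of NO and ambient air did not overlap, beside 66.7% of all genes. The NO arrays lay wholly above in 6 of the 19 tested members, beside 29.0% of all tested genes. They lay wholly below in 7 of the 19, beside 37.7% of all tested genes.

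**Figure D1:**
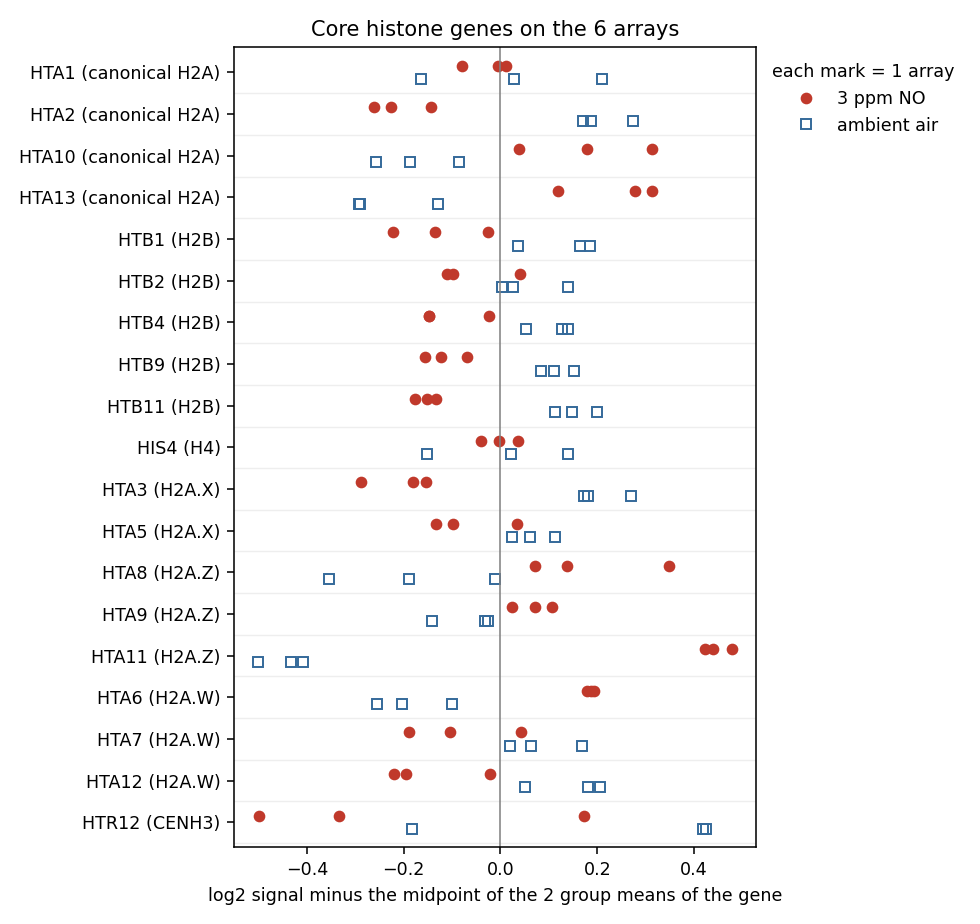
Log2 signal of each tested member on each of the 6 arrays, minus the midpoint of its 2 group means, with filled circles for 3 ppm NO and open squares for ambient air. The marks of the 2 groups are far apart for HTA11 and do not overlap for HTA2, HTA13 and HTB11, while they overlap for HTA1, HTB2, HIS4, HTA5, HTA7 and HTR12.

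Among the replication-dependent members, the canonical H2A genes split and the H2B genes were lower or did not pass. Of the 10 replication-dependent members, 2 were higher, 5 were lower and 3 did not pass, with a median log2 change of -0.16. Of the 9 tested variants, 3 were higher, 2 were lower and 4 did not pass, with a median of -0.13. Among all tested genes 25.8% were higher and 32.4% lower, with a median of -0.05. With the genes annotated as H3.1 and H3.3 added, the balance of both classes turned. Of 15 replication-dependent genes 6 were then higher and 5 lower, with a median of -0.05, and of 12 tested variants 3 were higher and 5 lower, with a median of -0.17. The difference between the classes was not tested. The count of lower replication-dependent genes was 3 with the probes of a gene averaged, and also without NO replicate 1, ambient replicate 2 or ambient replicate 3. The count of lower variants was 4 without NO replicate 2.

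**Figure D2:**
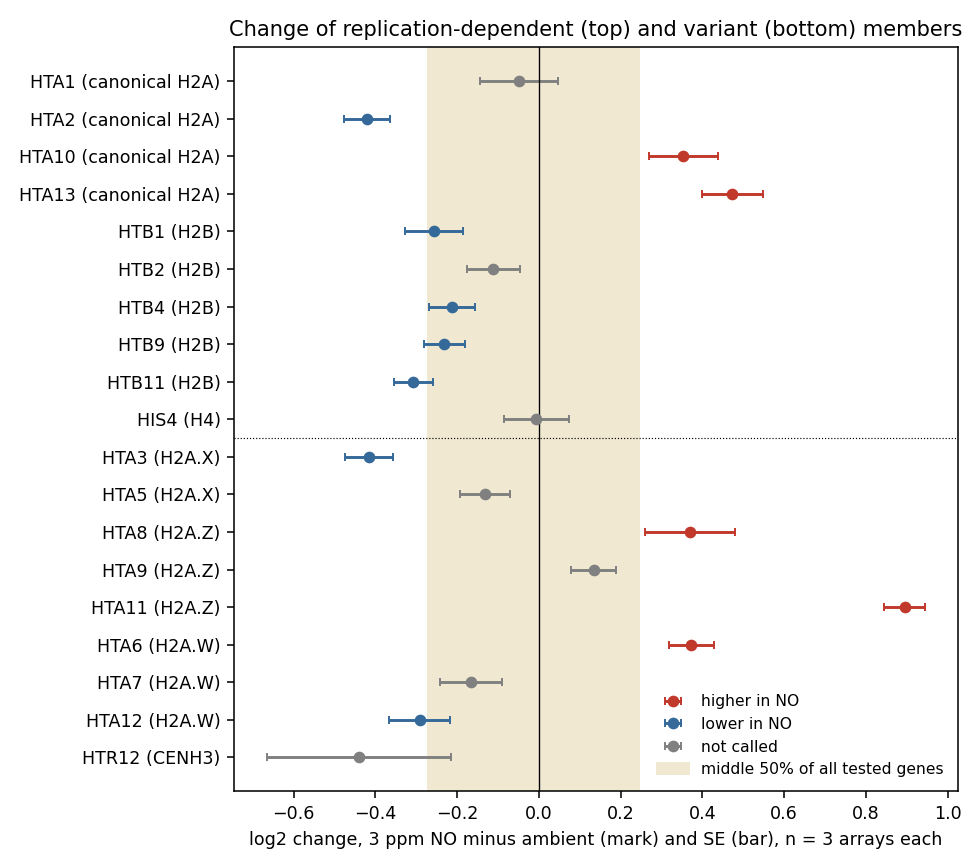
Log2 change of each tested member (mark) with its SE (bar), replication-dependent genes above the dotted line and variants below it, over the range of the middle 50% of all tested genes (-0.27 to 0.24). HTA11 lies farthest right at 0.89, and the H2B genes all lie left of 0.

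Canonical H2A was represented by HTA1, HTA2, HTA10 and HTA13. HTA13, on chromosome 3, had 0.68, 0.52 and 0.72 on the NO arrays, against 0.11, 0.11 and 0.27 on the ambient arrays. All 3 NO arrays were higher, by 0.47 ± 0.08 or 1.39-fold (adjusted p = 0.00194 in limma). HTA10, on chromosome 1, had 1.86, 1.59 and 1.73 on the NO arrays, against 1.37, 1.29 and 1.47 on the ambient arrays. It was again higher on every NO array, with a change of 0.35 ± 0.08 and 1.28-fold (adjusted p = 0.0106 in limma).

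HTA2, on chromosome 4, went the opposite way, with 2.70, 2.67 and 2.78 on the NO arrays, against 3.20, 3.11 and 3.1 on the ambient arrays. The groups did not overlap, and HTA2 was 1.34-fold lower in NO (-0.42 ± 0.06, adjusted p = 0.000894 in limma). HTA1, also named RAT5 for the resistance of its mutant to transformation by Agrobacterium, lies on chromosome 5 and had -2.12, -2.13 and -2.21 on the NO arrays, against -2.29, -1.92 and -2.10 on the ambient arrays. Its groups overlapped, and the change of -0.05 had an interval from -0.28 to 0.18 (adjusted p = 0.683 in limma). Each of these 4 genes was measured by 1 probe. Among the canonical H2A genes, HTA10 and HTA13 were thus higher and HTA2 lower, each by more than its SE, whereas the change of HTA1 was smaller than its SE.

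By the brightest probe of each gene, the mean levels of all 5 H2B members in NO were below those in ambient air. Of these, 4 were called lower, beside 32.4% of all tested genes. The dimmest probes of HTB4 (0.03) and HTB9 (0.32) went the other way, without passing. HTB11, on chromosome 3, had 3.68, 3.65 and 3.70 on the NO arrays, against 3.94, 3.98 and 4.03 on the ambient arrays. Every NO array was below every ambient array, and HTB11 was 1.24-fold lower (-0.31 ± 0.05, adjusted p = 0.00178 in limma). Its second, dimmer probe gave -0.13 and did not pass.

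HTB9, which the gene order of the table places on chromosome 3 with 4 genes between it and HTB11, had 4.51, 4.48 and 4.57 on the NO arrays, against 4.72, 4.75 and 4.79 on the ambient arrays. It was 1.17-fold lower in NO (-0.23 ± 0.05, adjusted p = 0.00673 in limma). It was measured by 4 probes, which gave changes of -0.23, -0.17, -0.07 and 0.32 from the brightest to the dimmest, and only the brightest passed. With the 4 probes averaged, the change was -0.04 and HTB9 was not called. With quantile normalization it was -0.43.

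HTB1, on chromosome 1, had 0.75, 0.95 and 0.84 on the NO arrays, against 1.01, 1.14 and 1.16 on the ambient arrays. The highest NO array lay just below the lowest ambient array, with a change of -0.26 ± 0.07 (adjusted p = 0.0196 in limma), and the dimmer probe of HTB1 also passed, at -0.41. HTB1 did not pass without NO replicate 1 (adjusted p = 0.0580), NO replicate 3 (0.0526), ambient replicate 2 (0.0601) or ambient replicate 3 (0.0632). HTB4, on chromosome 5, had 3.20, 3.20 and 3.32 on the NO arrays, against 3.4, 3.49 and 3.47 on the ambient arrays.

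The HTB4 groups did not overlap, and the change was -0.21 ± 0.06 (adjusted p = 0.0171 in limma), but its dimmer probe gave 0.03. HTB4 did not pass without NO replicate 1 (adjusted p = 0.0544), NO replicate 2 (0.0534), ambient replicate 2 (0.0538) or ambient replicate 3 (0.0525), with normexp (-0.14), or with its probes averaged (-0.09). HTB2, on chromosome 5, had -0.59, -0.46 and -0.61 on the NO arrays, against -0.49, -0.47 and -0.36 on the ambient arrays, and these overlapped. Its change of -0.11 had an interval from -0.27 to 0.04 (adjusted p = 0.184 in limma).

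H4 was represented by HIS4 on chromosome 2, with 0.91, 0.95 and 0.87 on the NO arrays, against 1.05, 0.76 and 0.94 on the ambient arrays. The NO values lay within the ambient range, and the change of -0.01 had an interval from -0.20 to 0.19 (adjusted p = 0.956 in limma).

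Of the 3 tested H2A.Z genes, 2 were higher in NO and 1 did not pass, beside 25.8% higher among all tested genes. HTA11, HTA9 and HTA8 all encode H2A.Z, the form placed by the SWR1 complex. HTA11, on chromosome 3, had -1.33, -1.29 and -1.35 on the NO arrays, against -2.27, -2.21 and -2.18 on the ambient arrays. It was 1.86-fold higher (0.89 ± 0.05, adjusted p = 2.20e-05 in limma), and its change exceeded in absolute size that of 91.0% of all tested genes. HTA11 was measured by 1 probe. The NO arrays agreed among themselves within an SD of 0.03 and the ambient arrays within an SD of 0.05. With normexp the change was 0.58 and passed.

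HTA8, on chromosome 2, was dim, with -3.18, -3.45 and -3.39 on the NO arrays, against -3.71, -3.88 and -3.54 on the ambient arrays. The groups came close without overlapping, at 0.37 ± 0.11 (adjusted p = 0.0246 in limma). The HTA8 call was not stable, since it was lost with normexp (0.09), quantile normalization, median scaling and no filter on dim probes, and also without NO replicate 1 (adjusted p = 0.0670), ambient replicate 1 (0.0592) or ambient replicate 2 (0.0683). HTA9, on chromosome 1, had 4.10, 4.15 and 4.18 on the NO arrays, against 4.05, 3.93 and 4.04 on the ambient arrays. All 3 NO arrays lay above the ambient arrays, but the change of 0.13 ± 0.05 did not pass (adjusted p = 0.0734 in limma), while its dimmer probe passed at 0.22 in a fit of all probes. Scaling turned its sign, to a change of -0.0044 under quantile normalization, whereas HTA9 passed with normexp, with its probes averaged and in the series matrix values. The remaining H2A.Z gene, HTA4 on chromosome 4, stayed within background on all 6 arrays and was not tested.

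Of the 2 H2A.X genes, 1 was lower in NO and 1 did not pass, beside 32.4% lower among all tested genes. HTA3 (symbol GAMMA-H2AX), on chromosome 1, had 0.31, 0.28 and 0.17 on the NO arrays, against 0.63, 0.64 and 0.73 on the ambient arrays. Every NO array lay below every ambient array, and HTA3 was 1.33-fold lower (-0.41 ± 0.06, adjusted p = 0.00114 in limma). HTA5 (symbol H2AXA), also on chromosome 1, had 3.79, 3.76 and 3.92 on the NO arrays, against 3.95, 3.91 and 4.00 on the ambient arrays. One NO array reached into the ambient range, and the change of -0.13 ± 0.06 did not pass (adjusted p = 0.107 in limma). The 2 dimmer probes of HTA5 gave 0.03 and 0.08, and neither passed. HTA5 passed with quantile normalization (-0.24), with median scaling and without NO replicate 3.

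Of the 3 H2A.W genes, all on chromosome 5, 1 was higher in NO, 1 was lower and 1 did not pass. Among all tested genes 25.8% were higher and 32.4% lower. HTA6 had -0.36, -0.37 and -0.37 on the NO arrays, against -0.76, -0.81 and -0.65 on the ambient arrays. It was 1.29-fold higher (0.37 ± 0.06, adjusted p = 0.00144 in limma). Its neighbour HTB4, with 4 genes between them, was lower.

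HTA12 had 0.50, 0.52 and 0.69 on the NO arrays, against 0.90, 0.77 and 0.92 on the ambient arrays. It was lower on every NO array, by -0.29 ± 0.07 (adjusted p = 0.0141 in limma). HTA7 had -0.23, -0.08 and -0.31 on the NO arrays, against 0.05, -0.06 and -0.10 on the ambient arrays, with overlapping groups. Its change of -0.17 had an interval from -0.35 to 0.01 (adjusted p = 0.0995 in limma), and it passed without NO replicate 2, at -0.23.

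HTR12, the CENH3 gene on chromosome 1, was dim and variable, with -5.25, -4.58 and -5.09 on the NO arrays, against -4.34, -4.94 and -4.33 on the ambient arrays. The groups overlapped, and the change of -0.44 ± 0.23 did not pass (adjusted p = 0.136 in limma). It passed without NO replicate 2, at -0.64, and without ambient replicate 2, at -0.64. HTR11, on chromosome 5, was well above background on 1 NO array only and was not tested.

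**Figure D3:**
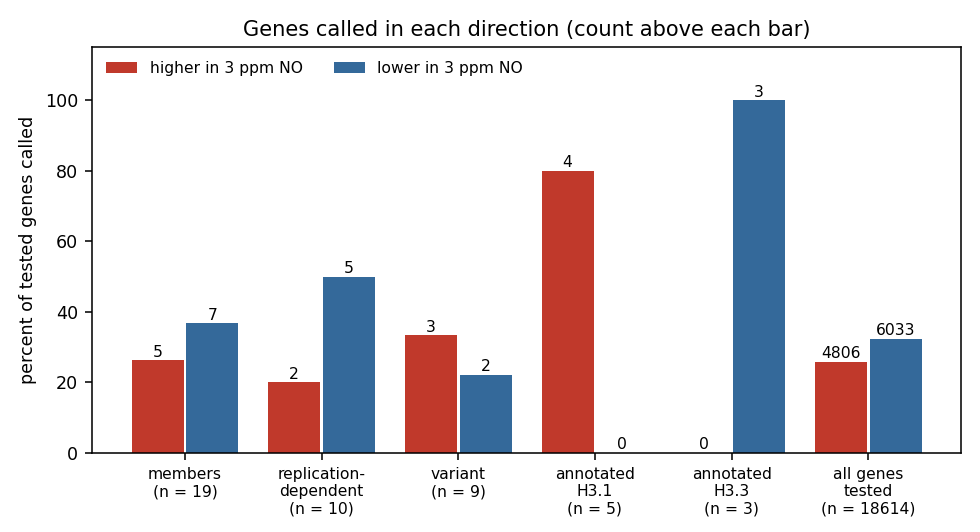
Percent of tested genes called higher (left bar) or lower (right bar) in 3 ppm NO for the members, their 2 classes, the annotated H3.1 and H3.3 genes and all tested genes, with the count above each bar. Members lie near all genes in both directions, while 4 of 5 H3.1 genes were higher and 3 of 3 H3.3 genes were lower.

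Of the 5 H3.1 genes, 4 were higher in NO, none was lower and 1 did not pass, with a median log2 change of 0.51. Of the 3 H3.3 genes, 3 were lower and none was higher, with a median of -0.25. Among all tested genes, 25.8% were higher and 32.4% lower. The difference between the H3.1 and H3.3 groups was not tested.

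AT5G10390, an H3.1 gene on chromosome 5, had -0.19, -0.11 and -0.08 on the NO arrays, against -1.22, -1.21 and -1.34 on the ambient arrays. The groups lay more than a log2 unit apart on average, and the gene was 2.19-fold higher (1.13 ± 0.06, adjusted p = 1.74e-05 in limma). AT5G10390 was measured by 1 probe. The next gene along the chromosome, AT5G10400, is also annotated as H3.1 and had 0.82, 0.69 and 0.73 on the NO arrays, against 0.74, 0.85 and 0.95 on the ambient arrays. These overlapped, with a change of -0.10 and an interval from -0.27 to 0.07 (adjusted p = 0.257 in limma).

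AT5G65360, an H3.1 gene on chromosome 5 next to HTR11, had 0.52, 0.56 and 0.52 on the NO arrays, against -0.10, -0.28 and -0.04 on the ambient arrays. It was 1.59-fold higher (0.67 ± 0.07, adjusted p = 0.000337 in limma). AT1G09200, on chromosome 1, had -0.31, -0.21 and -0.22 on the NO arrays, against -0.89, -0.64 and -0.74 on the ambient arrays. It was 1.42-fold higher (0.51 ± 0.08, adjusted p = 0.00143 in limma), and its much dimmer second probe gave 0.24 and did not pass. AT3G27360, on chromosome 3, had 0.13, 0.25 and 0.19 on the NO arrays, against -0.10, -0.18 and -0.04 on the ambient arrays. All of its NO arrays lay above the ambient arrays, by 0.30 ± 0.06 (adjusted p = 0.00463 in limma). AT5G65360 and AT3G27360 were each measured by 1 probe.

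The H3.3 genes AT4G40030 and AT4G40040 are neighbours on chromosome 4. AT4G40040 had 5.42, 5.39 and 5.24 on the NO arrays, against 5.75, 5.70 and 5.77 on the ambient arrays. It was 1.31-fold lower (-0.39 ± 0.06, adjusted p = 0.00188 in limma), and both of its probes passed. AT4G40030 had 4.85, 4.73 and 4.79 on the NO arrays, against 4.91, 5.01 and 4.99 on the ambient arrays.

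The change of AT4G40030 was -0.18 ± 0.06 (adjusted p = 0.0283 in limma). It did not pass without NO replicate 2 (adjusted p = 0.0823), NO replicate 3 (0.0659), ambient replicate 2 (0.0835) or ambient replicate 3 (0.0776), or with no filter on dim probes. Of its 2 dimmer probes, 1 passed at -0.32 and 1 gave -0.08 and did not pass. AT5G10980, on chromosome 5, had 4.26, 4.26 and 4.23 on the NO arrays, against 4.51, 4.47 and 4.50 on the ambient arrays. The arrays of each group agreed within an SD of 0.02, and the change was -0.25 ± 0.04 (adjusted p = 0.00331 in limma), but its dimmer probe gave -0.09 and the mean of its probes did not pass. With quantile normalization the changes of the 3 H3.3 genes were larger, at -0.43 for AT4G40030, -0.78 for AT4G40040 and -0.42 for AT5G10980.

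**Figure D4:**
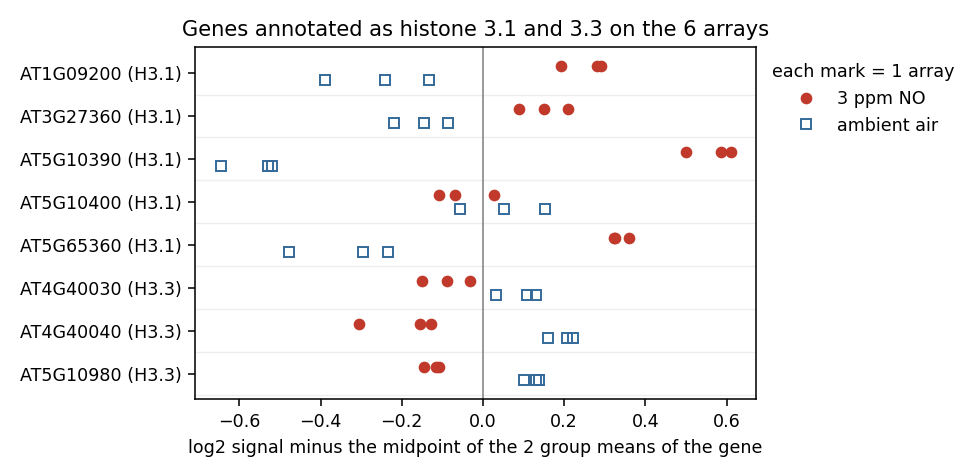
Log2 signal of the genes annotated as histone 3.1 and histone 3.3 on each of the 6 arrays, minus the midpoint of the 2 group means of each gene, with filled circles for 3 ppm NO and open squares for ambient air. The NO arrays lie right of the ambient arrays in 4 of 5 H3.1 genes and left of them in 3 of 3 H3.3 genes.

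Beyond the core histones, HIS1-3, a linker histone gene known to be induced by drought and abscisic acid, was lower in NO. It had 2.93, 3.1 and 3.02 on the NO arrays, against 3.78, 3.69 and 3.82 on the ambient arrays. It was 1.68-fold lower (-0.75 ± 0.07, adjusted p = 0.000148 in limma), and both of its probes passed. MGH3, the H3 gene of male gametes, was well above background on 1 NO array and no ambient array and was not tested.

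Genes for chaperones and remodellers that handle H2A and H2B were mostly lower. Of 10 tested genes of that list, none was higher, 9 were lower and 1 did not pass, with a median log2 change of -0.34, beside 32.4% lower and a median of -0.05 among all tested genes. With normexp 7 were lower, and 8 with no filter on dim probes or with the probes of a gene averaged. NRP1, NRP2 and NAP1;1, which encode histone chaperones of the NAP1 family, were 1.72-fold, 1.5-fold and 1.42-fold lower. Chosen after their values were seen, SEF, ARP6 and PIE1 of the H2A.Z-placing SWR1 complex were lower, by log2 changes of -0.39, -0.29 and -0.21. Of the tested H2A.Z genes, HTA11 and HTA8 were higher and HTA9 (0.13) did not pass. The call of HTA8 was lost in 8 of 15 other settings. The gene of the chaperone list that did not pass was SPT16 of the FACT complex, at -0.04.

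Genes for the handling of H3 and H4 moved both ways. Of 8 tested, 2 were higher (25%), 2 were lower (25%) and 4 did not pass, with a median of 0.13. Among all tested genes 25.8% were higher and 32.4% lower. With normexp none of the 8 was higher. Of the 6 above background on all 6 arrays, 1 was higher and 2 were lower, with a median of -0.04. The remaining genes, TSK among them, could enter the test only through the NO arrays, so the call of TSK is not counted as support. TSK, a gene of genome maintenance at replication, was within background on the 3 ambient arrays. In the processed signals its bound was 1.66-fold higher in NO. Such a bound takes, for each ambient array, the dimmest signal that counted as above background, or the signal of the gene where this was brighter. It sets their mean below the NO mean and holds for the processed signals only. FAS2, a subunit of the chromatin assembly factor that places H3.1, was 1.21-fold higher, and ATRX, which takes part in placing H3.3, was 1.15-fold lower. TSK, FAS2 and ATRX did not pass under some settings, with normexp changes of 0.11 for TSK and 0.03 for FAS2, and a change of -0.06 for ATRX with its probes averaged.

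Of the 7 S-phase genes that were above background on all 6 arrays, 3 were higher in NO, 1 was lower and 3 did not pass. Their median log2 change was 0.00037. Among all tested genes 25.8% were higher and 32.4% lower. A further 5 of the 12 tested were above background on all NO arrays but not on all ambient arrays, so they could enter the test only through the NO arrays, and their calls are not counted as support. With these included the median was 0.94, or 0.54 with 3 genes at their bounds, and 0.23 with normexp. PRL, the gene of the replicative helicase subunit MCM7, had -2.63, -2.49 and -2.54 on the NO arrays, against -3.89, -3.46 and -3.73 on the ambient arrays, and was 2.21-fold higher (log2 change 0.67 with normexp).

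MCM3, another helicase subunit gene, was well above background on 1 of 3 ambient arrays, so its fitted log2 change of 1.55 rests partly on signals within background, and normexp gave 0.44. PCNA1, which encodes the sliding clamp of DNA polymerase, was within background on the 3 ambient arrays. It entered the test only through the NO arrays. In the processed signals its bound was 1.58-fold higher in NO. With normexp the log2 change was 0.22 without a call, so the bound did not hold there. The other sliding clamp gene of the list, PCNA2, named after its value was seen, was above background on all 6 arrays and had a change of 0.00037 (adjusted p = 0.997 in limma). RNR2A, a ribonucleotide reductase gene, was the one that was lower, at 1.51-fold. The replication-dependent histone genes moved both ways beside this list. HTA10, HTA13 and 4 H3.1 genes were higher, whereas HTA2 and 4 H2B genes were lower.

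Markers of other tissues were read beside these values, and their part in the histone values was not tested. Their counts stand beside 25.8% higher and 32.4% lower among all tested genes. Of 7 tested shoot meristem markers, 3 were higher, 1 was lower and 3 did not pass, and CLV3 was within background on all 6 arrays. WUS was among those that did not pass. It was above background on 3 NO arrays and no ambient array and could enter the test only through the NO arrays. The summed log2 signal of the shoot meristem markers was 1.43 to 1.59 on the NO arrays, against 1.08 to 1.13 on the ambient arrays. Of 5 tested flower markers, 3 were higher, none was lower and AG (-0.20) and SEP3 (-0.27) did not pass, with a summed log2 signal of -0.12 to -0.03 on the NO arrays, against -0.45 to -0.16 on the ambient arrays. Of 5 tested vascular markers, 2 were higher and 2 were lower, and of 4 guard cell markers all 4 were lower. Of 4 tested root markers, 1 was higher and 1 was lower. The higher one, MYB36, was above background on 3 NO arrays and 2 ambient arrays. It could enter the test only through the NO arrays, so its call is not counted as support. The summed log2 signals on the NO arrays were 4.02 to 4.04 for vascular, 2.00 to 2.06 for guard cell and 0.71 to 0.87 for root markers, against 3.99 to 4.06, 2.45 to 2.49 and 0.80 to 0.87 on the ambient arrays. The 4 leaf mesophyll markers were all higher, with a summed log2 signal of 9.89 to 10.29 on the NO arrays, against 9.17 to 9.29 on the ambient arrays.

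**Figure D5:**
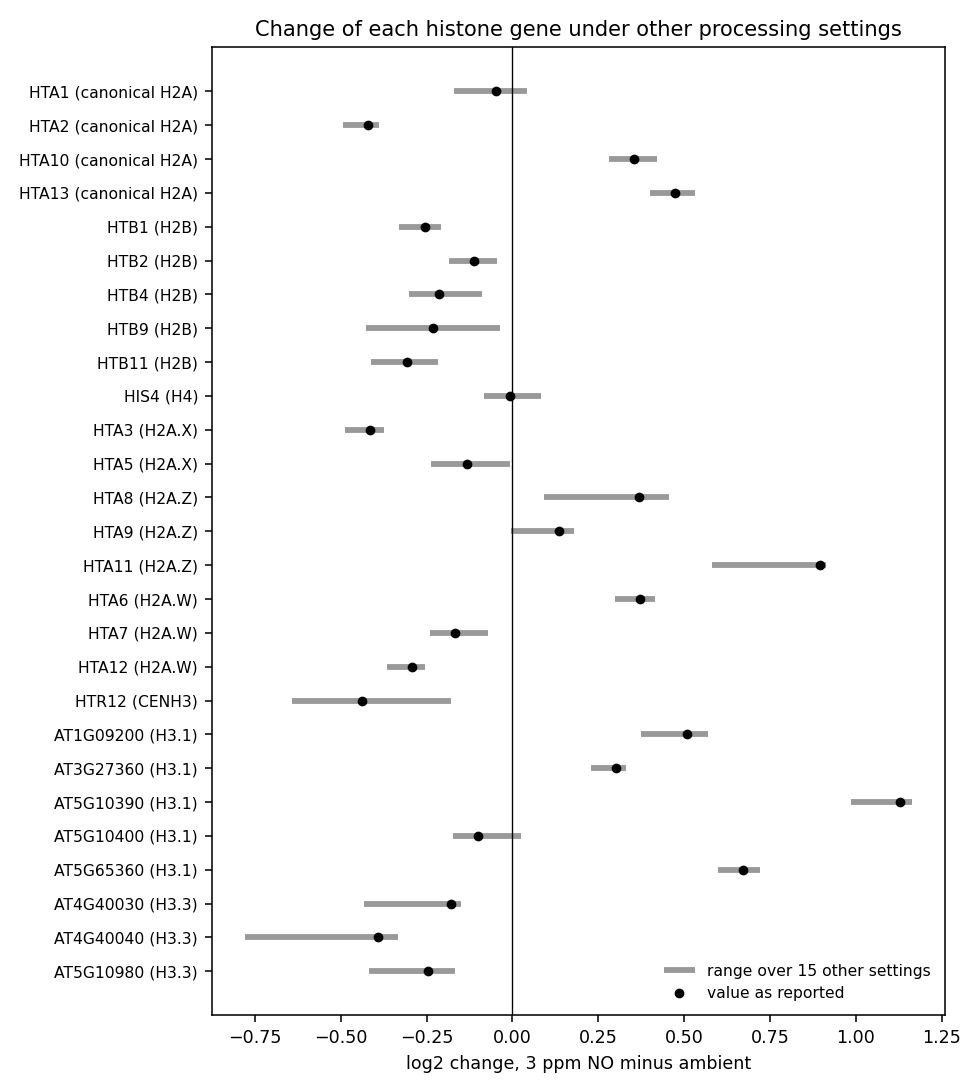
Log2 change of each tested histone gene as reported (dot) and its range over 15 other settings of background, scaling, filter, probe choice, replicates and block (bar). The bars of HTA1, HTA9, HIS4 and AT5G10400 cross 0, and none of these passed as reported.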

How the data were processed

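Per the file headers, each deposited scanner file gives the intensity of every spot, background-corrected by the scanner software Agilent Feature Extraction (10.7.3.1 in the headers, 10.5 in the submitters' processing notes). The authors' log2 values from the deposited series matrix, centred per probe by steps not given in the sources used here, served as an alternative.

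Here each array's processed signals were put on the log2 scale relative to their 75th percentile (716 to 1320), without control and outlier spots, and repeat spots were averaged. Of 43603 probes, 34285 matched a locus through their transcript accession, and the brightest probe stood for a gene. Testing required that probe to be well above background on the 3 arrays of either group. The two-sided test was limma's (3.58.1, lmFit and eBayes), run in R 4.3.3 and tested on simulated data, and p-values were adjusted by Benjamini-Hochberg. Alternatives covered background (normexp), scaling, filter, probe choice, the series matrix, each array left out, and a block.

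Members, classes and lists were chosen with earlier results of these data known, so no list was tested as a set. Outside the members, the text names up to 3 genes per list with the smallest adjusted p, PCNA1, and markers, with other choices marked. List genes without a name in the gene table (10) were left out. Normexp used the median spot signal, since the files hold no mean signal. Coordinates are not given, because the headers name another build than the table, and promoters and proteins were not analysed here.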

Additional observations from a re-analysis of the deposited data

How the results depend on the processing

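Over 15 other settings no called histone gene turned direction. The replicate numbers of the titles did not pair the arrays (correlations of same-numbered deviations -0.08, -0.04 and 0.05), and with them as a block 5 members were higher and 7 lower, as without it, while AT4G40030 did not pass (adjusted p = 0.0734 in limma). With the numbers of the source names as a block (2 shared pairs), 7141 genes passed in place of 10839, with 2 members higher and 4 lower, 0 replication-dependent genes higher and 2 lower, and 1 of the 3 H3.3 genes lower. The members that then did not pass kept changes near those reported: HTA13 had 0.41 (adjusted p = 0.0520 in limma), HTA10 0.35 (0.111), HTA8 0.39 (0.140), HTB1 -0.30 (0.0657), HTB4 -0.28 (0.0568) and HTB9 -0.27 (0.0653). The H3.3 genes AT4G40030 (-0.21) and AT5G10980 (-0.23) also did not pass. With the probes of a gene averaged, 3 replication-dependent genes were lower, and the median log2 changes were -0.069 for replication-dependent genes and -0.0085 for variants. Median scaling gave a median of -0.24 for replication-dependent genes. Leaving out 1 array at a time gave 3 to 5 lower replication-dependent genes and 2 to 4 lower variants. The source-name block leaves fewer degrees of freedom, and its 2 shared pairs had correlations of deviations of 0.02 and -0.12. The causes of the differences between settings were not tested. Dim members (HTA8, HTR12, HTA4 and HTR11) are limited by signal over background.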
